A study of Mus musculus with 9 samples.

Results

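The genes described here are the chemokines and their receptors. They were chosen as the protein-coding genes of the deposited table whose symbols name a CC ligand (Ccl with a number), a CXC ligand (Cxcl with a number), the ligand Cx3cl1, or a receptor (Ccr, Cxcr, Cx3cr1 or Ackr). This rule took 54 of 20461 protein-coding genes, and of 41761 genes in all. They comprised 20 CC ligands, 12 CXC ligands, Cx3cl1, 17 signalling receptors and 4 atypical receptors. A total of 22 of them reached at least 1 FPKM (fragments per kilobase of gene, with depth scaled per library) in at least 3 of 9 libraries and were tested for change.

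RNA was sequenced from primary adipose stromal cells of inguinal fat of wild-type C57BL/6J mice, induced to become white adipocytes. Sodium alginate, the salt of a brown-algal polysaccharide, was present at 0, 50 or 100 µM, with 3 libraries at each concentration. No label says whether these 3 came from separate cultures or animals, so p-values reflect only how far the libraries spread, and that spread may be technical. All 3 groups, the 0 µM cells included, were induced with 1 µg/ml insulin, 1 µM dexamethasone, 0.5 mM IBMX and, per the treatment protocol but not the design text, 1 µM rosiglitazone, an agonist of the adipogenic receptor PPARγ. The later medium kept insulin and, per the same protocol, rosiglitazone. Dexamethasone is also an anti-inflammatory steroid, as background. The dose was taken from the treatment label and library name, because the 100 µM libraries have titles that name 50 µM. Titles give day 6 and the protocol gives RNA collection on day 7. The cells carried the label of mature white adipocytes, and all 11 adipocyte markers examined passed the filter. Adipoq, the adiponectin gene, averaged 594 ± 26.7 FPKM at 0 µM, 656 ± 21.2 FPKM at 50 µM and 956 ± 64.9 FPKM at 100 µM (SD, n = 3 each).

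Chemokines are small secreted proteins that direct the migration of leukocytes. They are classed by the spacing of their conserved cysteines, and most act through G protein-coupled receptors on the responding cell. Atypical receptors (the Ackr genes) bind ligand without classical G protein signalling. In fat, stromal cells and adipocytes make ligands that recruit monocytes and neutrophils, and resident macrophages make others. Several ligands are transcribed on stimulation by interleukin 1, tumour necrosis factor or Toll-like receptor ligands through NF-κB.

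Rebuilt reads ranged from 14019672 to 17094467 per library. On the second principal component, with 11.9% of the variance, 50 µM library 3 stood apart at -19.1 while the others lay between -4.62 and 11.4. Counts of called chemokine genes in the comparisons that use 50 µM cells are given with and without it. Over all genes 18.3% were called higher and 15.6% lower at 100 µM than at 0 µM. That balance depends on scaling, with 2314 higher and 1965 lower as deposited and 1630 higher and 2633 lower with FPKM rescaled to a common sum (the TPM scale).

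The chemokine transcripts of these cultures were mostly ligands. The 2 CC ligand genes Ccl2 and Ccl7 held 46.5% of the summed FPKM of all 54 genes at 0 µM, 47.1% at 50 µM and 45.6% at 100 µM. Ccl2, the main monocyte attractant, ranked 224 among the protein-coding genes at 0 µM by mean FPKM, and Ccl7, which also attracts monocytes, ranked 225. At 0 µM they averaged 182 ± 7.94 and 180.5 ± 6.78 FPKM, which did not differ beyond their spread. In all, 12 genes averaged over 10 FPKM across the 9 libraries, and all 12 were ligands. The receptors summed to between 10.02 and 19.5 FPKM per library over 21 genes, most of it from the atypical receptor Ackr3. Levels are per kilobase of the gene length in the table. For Cxcl1, Cxcl2 and Cxcl3 that length equals the whole span of the gene, introns included, which sets their FPKM lower against genes measured over exons alone.

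**Figure D1:**
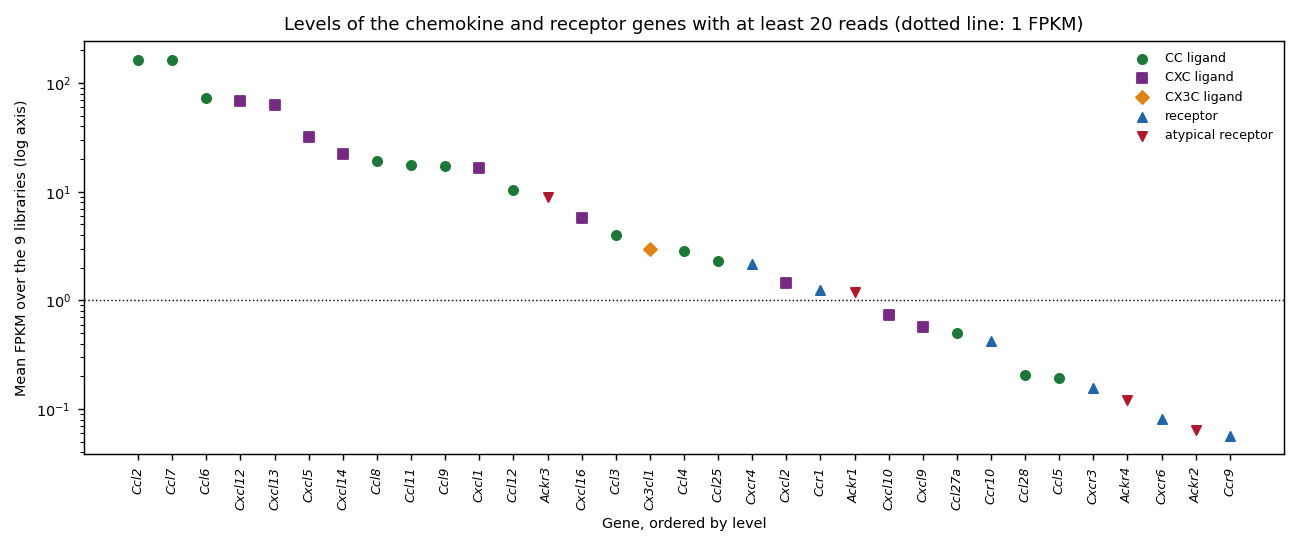
Mean FPKM over the 9 libraries (log axis) of each chemokine and receptor gene with at least 20 reads over the 9 libraries, ordered by level, with the marker giving the class of the gene. Ccl2 and Ccl7 lie above 100 FPKM, the 12 genes above 10 FPKM are all ligands, and all receptors but Ackr3, Cxcr4, Ccr1 and Ackr1 lie under the dotted line at 1 FPKM.

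A total of 32 genes did not pass the filter, 27 of them with some reads. Cxcl10 reached the highest value among these, 2.06 FPKM in 50 µM library 1, and Cxcl9 had at most 0.827 FPKM. Both are ligands of Cxcr3 that interferon induces, and Cxcr3 itself had at most 0.35 FPKM. Cxcr2, the neutrophil receptor for Cxcl1, Cxcl2 and Cxcl5, had 2 reads in the 9 libraries together, and Cxcr1 was listed at 0 in each of them. Ccr2, the receptor for Ccl2 and Ccl7, was also listed at 0 in every library, as were Ccr8, Ccl22 and Ccl26. Cx3cr1, the receptor for Cx3cl1, totalled 19 reads. Ccl27a and Ccl27b, with 30 and 7 reads, are near-identical copies whose reads cannot be assigned with certainty.

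The main comparison asked how these genes differed between cells given 100 µM alginate and cells given none. Chemokine genes fell. Of the 22 tested, 13 were called lower and 0 higher (limma, Benjamini-Hochberg adjusted p below 0.05 over all 12635 tested genes), a share of 59.1% lower against a background of 15.6% of all tested genes. By an unadjusted p below 0.05, 15 were lower and 0 higher, against 20.3% lower and 23.1% higher over all tested genes. Their median log2 fold change was -0.41, against 0.006 over all tested genes. In 14 of the 22 all 100 µM libraries lay below all 0 µM libraries, a pattern shown by 22.9% of all tested genes. In 0 of the 22 did they all lie above, against 25.0% of all tested genes. Fold changes are on the log2(FPKM + 1) scale, which understates those of low genes. In RNA from a whole culture, fewer cells of a type and less RNA per cell cannot be told apart.

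**Figure D2:**
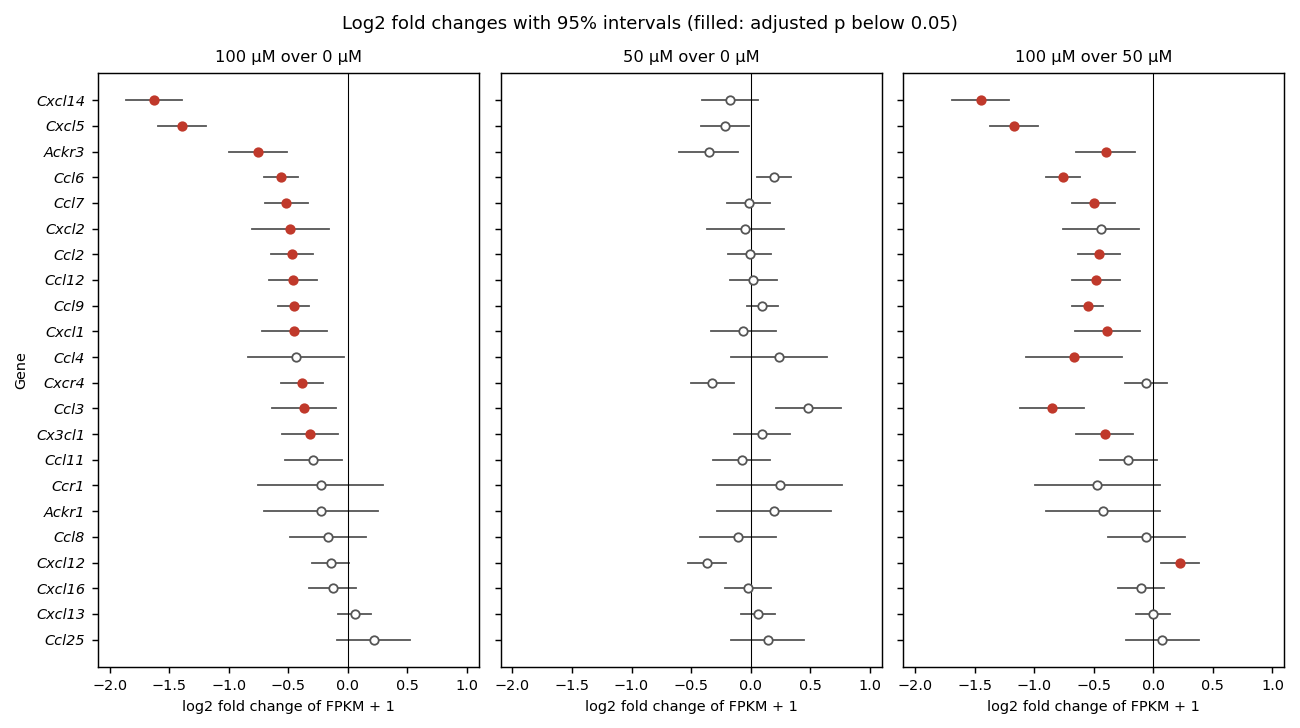
Log2 fold change of FPKM + 1 with its 95% interval for the 22 tested genes in the 3 comparisons, filled where the limma adjusted p is below 0.05. Cxcl14 and Cxcl5 lie farthest to the left at 100 µM over 0 µM, 13 genes are filled there, and none is filled at 50 µM over 0 µM.

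Cxcl14 fell most among the 22. It encodes a CXC ligand made constitutively by epithelial and stromal cells, whose receptor is not settled. It had 28.5, 31.4 and 30.8 FPKM at 0 µM, 22.4, 28.4 and 29.6 at 50 µM, and 9.90, 9.41 and 8.10 at 100 µM. The 100 µM libraries lay well below all others, and the 50 µM and 0 µM libraries overlapped. Cxcl14 thus averaged 9.13 ± 0.932 FPKM at 100 µM, 30.2% of the 30.2 ± 1.55 FPKM at 0 µM (SD, n = 3 each; log2 fold change -1.63 ± 0.105, SE, limma adjusted p = 1.55e-05). It is MGP_C57BL6NJ_G0021000 and lies on chromosome 13 at 57525211 to 57533115, minus strand, in the table's own coordinates on the C57BL/6NJ strain assembly.

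The CXC ligands of Cxcr2, which attract neutrophils, also fell, Cxcl5 next after Cxcl14 in size. Cxcl5 had 42.7, 41.4 and 45.8 FPKM at 0 µM, 33.0, 37.9 and 40.7 at 50 µM, and 17.7, 15.6 and 14.5 at 100 µM. The doses did not overlap, with every 50 µM library between the other doses. At 100 µM Cxcl5 averaged 36.8% of its 0 µM level (log2 fold change -1.39 ± 0.0888, limma adjusted p = 1.55e-05). Cxcl1 had 17.0, 18.8 and 19.8 FPKM at 0 µM, 15.96, 17.1 and 20.3 at 50 µM, and 10.9, 14.99 and 14.4 at 100 µM. All 100 µM libraries of Cxcl1 lay below the others (log2 fold change -0.45 ± 0.122 against 0 µM, limma adjusted p = 0.0195). That call was lost without control library 2 or 3, at adjusted p = 0.0566 and 0.0666 (limma), and with no filter on low values at 0.0543. Cxcl2 was low throughout, at 1.90, 1.45 and 1.79 FPKM at 0 µM, 1.38, 1.60 and 1.94 at 50 µM, and 0.87, 0.676 and 1.32 at 100 µM. Every 100 µM library of Cxcl2 lay below every other. Its log2 fold change against 0 µM was -0.48 ± 0.142 (limma adjusted p = 0.0279), on 19 to 41 reads per 100 µM library. The Cxcl2 call was lost with no filter on low values and without control library 1 or 3 or 100 µM library 1 or 2, at adjusted p between 0.0671 and 0.0918 (limma).

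These 3 genes lie in 1 stretch of chromosome 5, from 95522297 to 95660321, in the order Cxcl5, Cxcl3, Cxcl15, Cxcl1 and Cxcl2, with the chemokine genes Ppbp and Pf4, whose symbols the naming rule does not take, between Cxcl5 and Cxcl3. Cxcl5, Cxcl1 and Cxcl2 fell, as did Pf4, described further on, while Cxcl3, Cxcl15 and Ppbp totalled 19, 1 and 10 reads and were not tested. The promoters of Cxcl1, Cxcl2 and Cxcl3 are shown because neighbours with the same motif differed so much in level, beside that of Cxcl14, which fell most. Each window runs from 250 bases before to 50 bases after the transcript start (RefSeq, GRCm38.p6), 5′ to 3′ on the strand of the gene. Capitals mark the NF-κB type motif GGANTTTCC. The windows are chr5:90890995-90891294 (plus strand) for Cxcl1, chr5:90903649-90903948 (plus) for Cxcl2, chr5:90785851-90786150 (plus) for Cxcl3 and chr13:56296502-56296801 (minus) for Cxcl14.
Cxcl1: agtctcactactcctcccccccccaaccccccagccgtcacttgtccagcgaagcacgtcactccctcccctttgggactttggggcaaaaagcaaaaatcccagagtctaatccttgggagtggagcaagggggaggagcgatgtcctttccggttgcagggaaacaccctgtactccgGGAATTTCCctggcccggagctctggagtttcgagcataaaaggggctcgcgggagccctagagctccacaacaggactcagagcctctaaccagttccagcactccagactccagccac
Cxcl2: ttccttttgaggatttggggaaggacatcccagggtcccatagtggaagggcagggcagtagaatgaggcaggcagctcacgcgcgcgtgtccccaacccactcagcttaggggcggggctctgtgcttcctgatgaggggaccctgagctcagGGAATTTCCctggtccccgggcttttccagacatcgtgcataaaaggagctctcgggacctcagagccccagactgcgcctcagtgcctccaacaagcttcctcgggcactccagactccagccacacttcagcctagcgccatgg
Cxcl3: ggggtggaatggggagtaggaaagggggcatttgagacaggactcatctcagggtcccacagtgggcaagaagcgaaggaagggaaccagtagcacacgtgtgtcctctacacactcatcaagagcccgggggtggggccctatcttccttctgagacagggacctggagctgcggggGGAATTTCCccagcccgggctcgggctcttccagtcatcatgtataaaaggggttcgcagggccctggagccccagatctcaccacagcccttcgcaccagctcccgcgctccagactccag
Cxcl14: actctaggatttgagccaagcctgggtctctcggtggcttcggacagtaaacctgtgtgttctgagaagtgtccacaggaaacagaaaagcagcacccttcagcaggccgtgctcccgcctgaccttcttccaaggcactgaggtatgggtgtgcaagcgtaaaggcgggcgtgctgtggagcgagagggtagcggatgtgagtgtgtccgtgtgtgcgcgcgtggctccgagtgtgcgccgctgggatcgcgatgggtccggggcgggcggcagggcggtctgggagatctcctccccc

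The motif began 70 bases before the start in Cxcl1, 96 before it in Cxcl2 and 72 before it in Cxcl3, each time as GGAATTTCC, and these letters were not in the Cxcl14 window. RefSeq windows were matched by symbol for 40 of the 54 genes. GGANTTTCC, sought on both strands, was in 5 of 47 windows of these genes, 10.6%, against 1.25% of all 32851 windows, and Cxcl10 and Ccr3 held the other matches. An AP-1 type motif, TGANTCA, which did not overlap it, was in 9 of the 47 windows, 19.1%, against 7.81% of all windows. Of the 13 genes that fell, 10 had a window, while Ccl2, Ccl7 and Cxcl5 had none and were not searched. Among those 10, Cxcl1 and Cxcl2 held the first motif and Ccl9 the second. A match describes letters only and was not tied to binding. Cxcl3, which has the same letters at a like distance as Cxcl1, had at most 0.0764 FPKM in any library.

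The other CXC ligand genes tested outside this stretch were Cxcl13, Cxcl16 and Cxcl12. Cxcl13, which draws B cells through Cxcr5, had 62.5, 61.5 and 58.2 FPKM at 0 µM, 64.8, 57.9 and 68.2 at 50 µM, and 65.7, 63.1 and 61.2 at 100 µM, and the doses overlapped. Its log2 fold change at 100 µM against 0 µM had a 95% interval of -0.08 to 0.20, so it did not pass and a fall like that of Cxcl5 lay outside the interval. Cxcl16, a membrane-bound ligand of Cxcr6, averaged 5.36 ± 0.238 FPKM at 100 µM and 5.98 ± 0.723 FPKM at 0 µM (log2 interval -0.32 to 0.07). Neither gene was called in any comparison.

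CC ligands of monocytes formed the most abundant group. Ccl2 had 173, 189 and 183 FPKM at 0 µM, 182, 159 and 203 at 50 µM, and 132, 135.0 and 127 at 100 µM. Ccl7 had 173, 184 and 185 FPKM at 0 µM, 174, 171 and 192 at 50 µM, and 138, 131 and 111 at 100 µM. For both genes the 100 µM libraries lay below all others and the 50 µM libraries spanned the range of the controls. Ccl2 fell at 100 µM by 0.47 ± 0.0789 on the log2 scale (limma adjusted p = 0.0018) and Ccl7 by 0.52 ± 0.0804 (limma adjusted p = 0.00116), to 72.2% and 70.0% of the 0 µM means. Ccl12, a further ligand of Ccr2 in mouse, had 11.2, 9.95 and 13.4 FPKM at 0 µM, 11.9, 11.5 and 11.5 at 50 µM, and 8.49, 7.95 and 7.71 at 100 µM, with all 100 µM libraries the lowest. It fell by 0.46 ± 0.0886 on the log2 scale (limma adjusted p = 0.00367).

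The neighbours of these genes did not all pass. Ccl2, Ccl7, Ccl11, Ccl12, Ccl8 and Ccl1 follow one another on chromosome 11 from 85777797 to 86066188, and 3 of the 5 tested fell. Ccl11, the eosinophil attractant eotaxin, had 20.5, 19.4 and 18.1 FPKM at 0 µM, 16.3, 16.9 and 22.2 at 50 µM, and 14.7, 15.4 and 16.8 at 100 µM. The 100 µM libraries of Ccl11 lay below the controls, yet the gene did not pass (log2 fold change -0.29 ± 0.106, limma adjusted p = 0.0646), but it did so in 6 of 18 alternatives, over which adjusted p ran from 0.00826 without 50 µM library 3 to 0.173 without control library 1 (limma). Ccl8, at 18.3 ± 2.94 FPKM in 100 µM libraries against 20.5 ± 1.54 FPKM in controls, overlapped between doses (limma adjusted p = 0.415). Ccl1 totalled 3 reads.

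**Figure D3:**
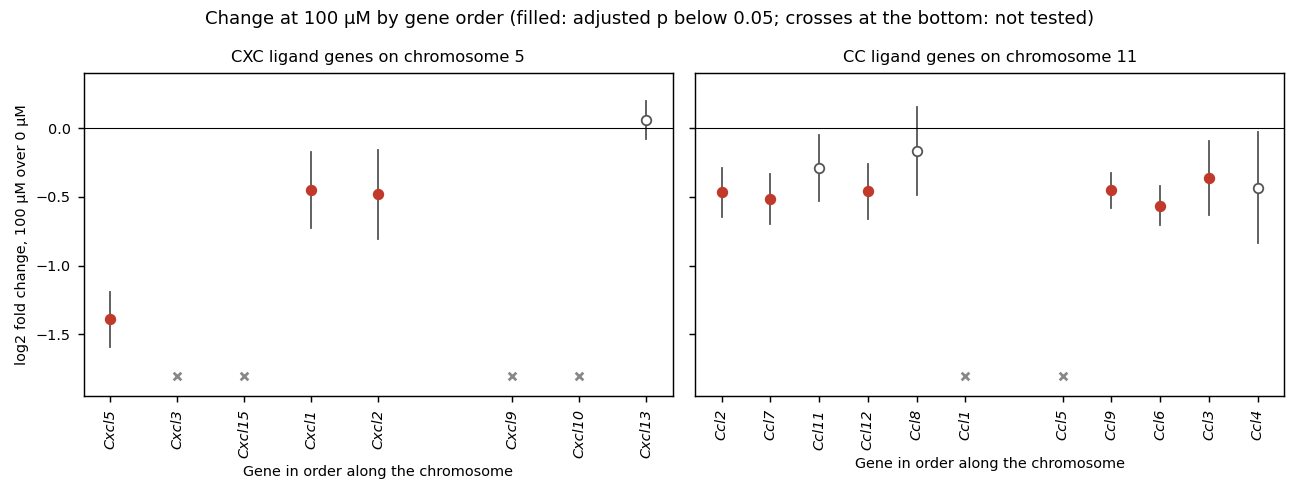
Log2 fold change at 100 µM over 0 µM with its 95% interval for Cxcl genes on chromosome 5 and Ccl genes on chromosome 11, in their order along the chromosome, filled where the limma adjusted p is below 0.05, with crosses at the bottom for genes not tested. Cxcl5 fell by 1.39 while Cxcl13 on the same chromosome stayed near 0, and the intervals of Ccl11 and Ccl8 overlap those of the neighbouring genes that fell.

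A second stretch of chromosome 11, from 87455568 to 87615387, holds ligands of which several are known, as background, from macrophages. Which cells made them in these cultures was not tested. Ccl6, a ligand of Ccr1, had 72.2, 80.5 and 79.9 FPKM at 0 µM, 85.9, 86.5 and 94.2 at 50 µM, and 51.6, 55.6 and 49.3 at 100 µM. The doses did not overlap, with the 50 µM libraries the highest. At 100 µM Ccl6 fell to 67.3% of its 0 µM level (log2 fold change -0.56 ± 0.0629, limma adjusted p = 0.000184). Ccl9, also a Ccr1 ligand, had 18.2, 19.0 and 18.7 FPKM at 0 µM, 19.0, 20.3 and 20.9 at 50 µM, and 14.5, 13.1 and 12.6 at 100 µM. It fell at 100 µM by 0.45 ± 0.0577 on the log2 scale (limma adjusted p = 0.000374), with all 100 µM libraries the lowest.

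Ccl3 and Ccl4, which encode macrophage inflammatory proteins, are next to each other in that stretch. Ccl3 had 3.51, 4.18 and 3.33 FPKM at 0 µM, 5.97, 4.47 and 6.31 at 50 µM, and 2.43, 2.498 and 2.96 at 100 µM. It was lowest in all 100 µM libraries and highest in all 50 µM libraries. Its fall at 100 µM (log2 fold change -0.36 ± 0.12, limma adjusted p = 0.0423) rested on 26 to 34 reads per 100 µM library and was lost under 11 of 18 alternatives, at adjusted p up to 0.177 (limma). Those included leaving out any 1 control library, 50 µM library 1 or 100 µM library 1 or 2. Ccl4 had 3.03, 3.34 and 2.44 FPKM at 0 µM, 3.24, 3.21 and 4.53 at 50 µM, and 2.82, 1.45 and 1.62 at 100 µM. Ccl4 overlapped between 100 µM and 0 µM and did not pass (limma adjusted p = 0.0943), though it did at 0.0132 without 100 µM library 1. Ccl5, in the same stretch, totalled 25 reads.

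Cx3cl1, which encodes the membrane-anchored chemokine fractalkine, had 2.61, 3.29 and 3.60 FPKM at 0 µM, 3.20, 3.17 and 3.95 at 50 µM, and 2.41, 2.40 and 2.18 at 100 µM. All 100 µM libraries lay below the others. The fall of Cx3cl1 (log2 fold change -0.32 ± 0.104, limma adjusted p = 0.0429) was lost under 12 of 18 alternatives, at adjusted p from 0.0523 to 0.143 (limma). Those included leaving out control library 2 or 3, 50 µM library 1 or 2, or any 1 of the 100 µM libraries. Ccl25, a ligand of Ccr9 known from thymus and gut, averaged 2.55 ± 0.394 FPKM in 100 µM libraries against 2.04 ± 0.145 FPKM in controls and was not called (log2 interval -0.09 to 0.53, limma adjusted p = 0.252).

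Cxcl12 and its receptors are described together. Cxcl12 encodes the ligand that retains blood cell precursors in tissue, Cxcr4 its signalling receptor, and Ackr3 an atypical receptor that clears it. Cxcl12 had 81.5, 74.7 and 73.2 FPKM at 0 µM, 64.7, 55.9 and 56.7 at 50 µM, and 73.3, 68.9 and 65.1 at 100 µM. The 50 µM libraries were the lowest, below every library of the other doses. Against 0 µM, Cxcl12 did not pass at 100 µM (log2 fold change -0.14 ± 0.0697, limma adjusted p = 0.147) or at 50 µM (-0.37 ± 0.0697, limma adjusted p = 0.0534). With the TPM scale it passed in both, at 0.0377 and 0.0488, and with the authors' factor removed at 0.0376 and 0.0486 (limma). At 100 µM it also passed with quantile normalization at 0.023, and at 50 µM also without 50 µM library 1, at 0.047 (limma).

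Both receptors fell at 100 µM. Ackr3 had 11.5, 10.7 and 12.4 FPKM at 0 µM, 8.53, 8.03 and 10.00 at 50 µM, and 7.45, 5.41 and 6.58 at 100 µM. The doses did not overlap and stood in order of dose. At 100 µM Ackr3 fell to 56.0% of its 0 µM level (log2 fold change -0.76 ± 0.109, limma adjusted p = 0.000738). Cxcr4 had 2.90, 2.70 and 2.49 FPKM at 0 µM, 2.04, 1.96 and 1.87 at 50 µM, and 1.99, 1.83 and 1.66 at 100 µM. The controls were the highest, and the 50 µM and 100 µM libraries overlapped. Cxcr4 fell at 100 µM by 0.39 ± 0.079 on the log2 scale (limma adjusted p = 0.00493), on 45 to 60 reads per 100 µM library.

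The remaining receptors past the filter were Ccr1, the macrophage and neutrophil receptor for Ccl3, Ccl6 and Ccl9, and Ackr1, a chemokine-binding receptor of venular endothelium and red cells. Ccr1 had 1.02, 0.637 and 2.07 FPKM at 0 µM, 0.986, 1.82 and 2.02 at 50 µM, and 0.805, 0.806 and 0.944 at 100 µM. It reached the filter only through 0 µM and 50 µM libraries and did not pass the test (limma adjusted p = 0.496). Ackr1 averaged 0.874 ± 0.276 FPKM in 100 µM libraries against 1.23 ± 0.608 FPKM in controls, which did not pass (limma adjusted p = 0.458).

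**Figure D4:**
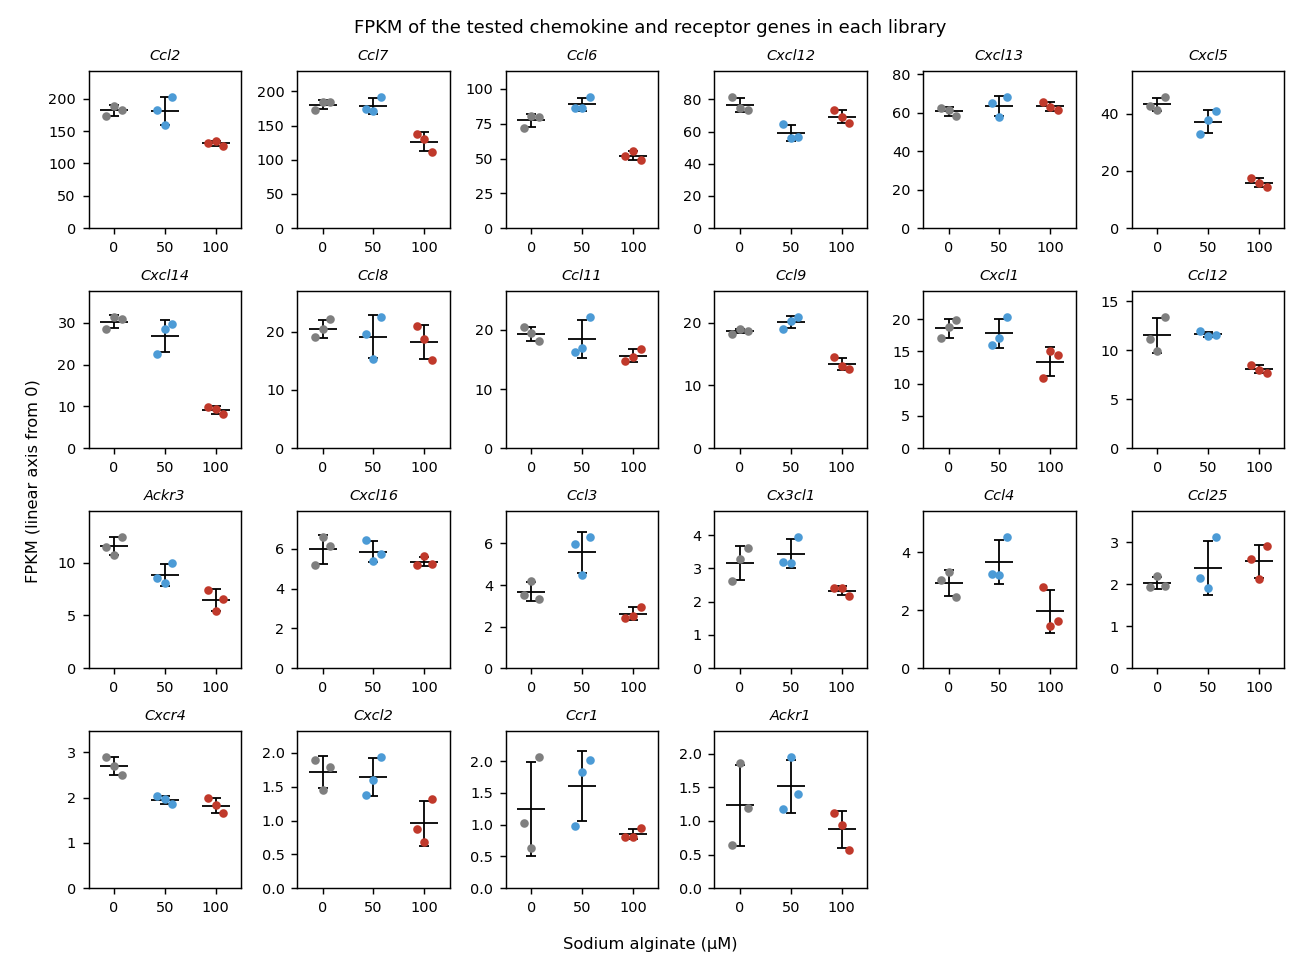
FPKM in each library (points) for the 22 tested genes at 0, 50 and 100 µM alginate, with the mean (horizontal bar) and SD (error bar) of each dose on a linear axis from 0. The 100 µM points of Cxcl14 (8.10 to 9.90 FPKM) and Cxcl5 (14.5 to 17.7 FPKM) lie far below the other doses, whereas the points of Cxcl13 overlap across doses.

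The next comparison set cells given 50 µM alginate against the same controls. None of the 22 genes was called higher or lower (limma), against a background of 0.791% of all tested genes (0.356% higher and 0.435% lower). At an unadjusted p below 0.05, 2 were higher and 4 lower, against 8.63% higher and 5.73% lower over all tested genes. These were Ccl6 and Ccl3 above, and Cxcl5, Cxcl12, Cxcr4 and Ackr3 below, and in the same 6 genes all 50 µM libraries lay outside the range of the controls. Such separation was seen above the controls in 12.1% and below them in 8.58% of all tested genes. The log2 fold changes were 0.20 ± 0.0629 for Ccl6, 0.49 ± 0.12 for Ccl3, -0.22 ± 0.0888 for Cxcl5, -0.35 ± 0.109 for Ackr3 and -0.32 ± 0.079 for Cxcr4, with adjusted p of 0.191, 0.102, 0.305, 0.168 and 0.102 (limma). The interval for Ccl2 was -0.19 to 0.17, that for Ccl7 -0.20 to 0.17 and that for Cxcl14 -0.41 to 0.06. With voom on the rebuilt reads, an alternative chosen after seeing the data, Cxcl12 and Ackr3 were called lower at adjusted p = 0.00145 and 0.0335. Without 50 µM library 3, 0 of the 22 genes were called (limma), and 7 had an unadjusted p below 0.05, against 6 with it.

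The last comparison set 100 µM against 50 µM, and shares its libraries with the others. Of the 22 genes, 12 were lower at 100 µM and 1, Cxcl12, was higher, against 12.0% lower and 13.2% higher, 25.1% in all, over all tested genes (limma). Without 50 µM library 3 the counts were 8 lower and 0 higher, and Ackr3, Ccl4, Cx3cl1, Cxcl1 and Cxcl12 were no longer called. Leaving out 100 µM library 3 also ended the calls of Ackr3, Ccl4, Cx3cl1 and Cxcl1 and brought in Cxcl2, and leaving out 100 µM library 2 ended those of Ackr3, Ccl4 and Cxcl12. Cxcl1 (limma adjusted p = 0.0451) was lost on leaving out any 1 library other than 50 µM library 1 and 100 µM library 2. The largest falls were again those of Cxcl14 (log2 fold change -1.45 ± 0.105) and Cxcl5 (-1.17 ± 0.0888), each at limma adjusted p = 0.000194. Ccl3 followed with -0.85 ± 0.12 (limma adjusted p = 0.00115) and Ccl6 with -0.76 ± 0.0629 (limma adjusted p = 0.000212), both highest at 50 µM. Ccl4 passed here at -0.67 ± 0.179 (limma adjusted p = 0.0243). Cxcr4 did not (log2 fold change -0.06 ± 0.079, limma adjusted p = 0.597). The rise of Cxcl12 (0.22 ± 0.0697, limma adjusted p = 0.0438) was lost under 12 of 18 alternatives, including the TPM scale at adjusted p = 0.131, the authors' factor removed at 0.13, and each library left out in turn except control library 1, 50 µM library 1 and 100 µM library 3.

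Genes that act before chemokine transcription were taken from a list of cytokines, their receptors and NF-κB components. Of 32 tested, 13 fell and 2 rose at 100 µM, against 15.6% lower and 18.3% higher over all tested genes. The IκB kinase gene Chuk was among those that rose, and the median log2 fold change of the list was -0.15. Chuk (limma adjusted p = 0.0496) was lost in each of 18 alternatives, at adjusted p from 0.0501 to 0.435. Csf1, the macrophage growth factor gene, fell to 87.1 ± 3.48 FPKM at 100 µM, against 136 ± 5.39 FPKM at 0 µM. Il1r1, the interleukin 1 receptor, averaged 60.1 ± 0.794 FPKM in 100 µM libraries against 89.3 ± 2.17 FPKM in controls (log2 fold change -0.56 ± 0.0383, limma adjusted p = 1.85e-05), and was the 1 list gene also lower at 50 µM, at 74.3 ± 2.23 FPKM (limma adjusted p = 0.0253), a call lost without any 1 of the control or 50 µM libraries, at adjusted p from 0.0613 to 0.107. Il6 fell by 0.33 ± 0.0612 on the log2 scale (limma adjusted p = 0.00305), and Tnfrsf1b, a tumour necrosis factor receptor, by 0.47 ± 0.0503. Nfkbia, an inhibitor of NF-κB that NF-κB itself induces, averaged 55.1 ± 3.03 FPKM in 100 µM libraries against 58.4 ± 2.55 FPKM in controls, which did not pass (limma adjusted p = 0.258) but did with the TPM scale, as lower, at 0.0398. Il1b was listed at 0 in every library and Tnf had at most 1.1 FPKM.

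Of 29 signalling genes below the receptors that were tested, 9 fell and 3 rose (Gnai1, Ptk2b and Rgs2) at 100 µM. The shares over all tested genes were 15.6% lower and 18.3% higher. The median log2 fold change of these 29 genes was -0.12. Rgs2, which shortens G protein signals, rose to 8.45 ± 0.312 FPKM at 100 µM, against 5.19 ± 0.205 FPKM at 0 µM (limma adjusted p = 9.51e-05). Jak2 and the G protein subunit gene Gng12 fell by 0.36 ± 0.0454 and 0.34 ± 0.0438 on the log2 scale. Of 20 other chemoattractant and chemokine-processing genes tested, 12 fell and 0 rose, against the same 15.6% lower and 18.3% higher over all tested genes. Rarres2, which encodes chemerin, and Cmklr1, its receptor, fell by 0.33 ± 0.0747 and 0.41 ± 0.0704 (limma adjusted p = 0.00804 and 0.00192). Sdc4, a heparan sulfate proteoglycan, fell by 0.47 ± 0.0464, Cmtm3 by 0.43 ± 0.0579 and the shedding protease gene Adam10 by 0.29 ± 0.0396. Pf4, the chemokine once named Cxcl4, which lies beside Cxcl3 but outside the naming rule, was singled out after its values were seen. It had 39.9, 47.6 and 43.3 FPKM at 0 µM, 45.0, 56.4 and 63.5 at 50 µM, and 28.3, 31.5 and 29.6 at 100 µM, with the 100 µM libraries the lowest (log2 fold change -0.53 ± 0.114 at 100 µM against 0 µM, limma adjusted p = 0.00633). Dpp4, a protease that trims chemokines, had at most 0.421 FPKM and was not tested.

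Cell type markers also differed between these libraries. Of 10 tested macrophage markers 8 fell and 0 rose at 100 µM, against 15.6% lower and 18.3% higher over all tested genes. The summed FPKM of the list was 202 to 208 at 100 µM, against 251 to 280.2 at 0 µM, while at 50 µM it was 272 to 278. Adgre1, which encodes F4/80, averaged 10.35 ± 0.695 FPKM at 100 µM and 12.3 ± 0.934 FPKM at 0 µM, though its call was lost under 6 of 18 alternatives, such as without control library 1 at adjusted p = 0.107 (limma). Cd68 averaged 29.7 ± 1.62 FPKM at 100 µM against 37.6 ± 1.82 FPKM at 0 µM, and Csf1r 4.12 ± 0.157 FPKM at 100 µM against 5.28 ± 0.194 FPKM at 0 µM. Fcgr3 and Cd14 fell by 0.48 ± 0.0639 and 0.47 ± 0.069. Itgam was listed at 0 in all libraries but 50 µM library 3, where it had 1 read, and Ptprc had at most 0.459 FPKM. At 50 µM, 0 macrophage markers were called, and neither were Ccl6 and Ccl3. By separation, C1qc, a complement gene of macrophages, lay above every control at 50 µM as Ccl6 and Ccl3 did. It had 21.75, 22.1 and 24.75 FPKM at 50 µM against 19.25, 21.0 and 20.4 FPKM at 0 µM (limma adjusted p = 0.21), and was named after its values were seen. All other tested macrophage markers overlapped the controls at 50 µM, and 12.1% of all tested genes lay above the controls in this way. The part of these markers in the falls of Ccl6, Ccl9, Ccl3 and the other ligands was not tested.

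For the marker counts that follow, the shares over all tested genes at 100 µM against 0 µM were 15.6% lower and 18.3% higher. Endothelial markers had 8 of 9 tested lower (Pecam1, Emcn and Lyve1 by 0.31, 0.44 and 0.51 on the log2 scale). The endothelial list summed to 161 to 164 FPKM at 100 µM, against 191 to 215 at 0 µM. Of 8 progenitor markers tested 6 fell, with a sum of 445 to 525 FPKM at 100 µM, against 769 to 852 at 0 µM. Pdgfra, a receptor of adipose progenitors, fell to 32.3 ± 1.15 FPKM at 100 µM, against 52.1 ± 1.92 FPKM at 0 µM, and Anxa3 and Icam1 fell by 0.96 and 0.54. Of 9 smooth muscle and pericyte markers 3 fell (Acta2, Tagln and Pdgfrb) and 2 rose (Cspg4 and Mcam). Mcam was lost with the TPM scale at adjusted p = 0.123 and without control library 1 or 100 µM library 3, and Cspg4 without control library 3 at 0.0504 (limma). Of 6 mesothelial markers only 2, Krt19 and Gpm6a, were tested, and both fell, while Msln had at most 0.158 FPKM. Of 5 mast cell markers 2 were tested, and Kit fell while Cpa3 did not pass. The mast cell markers Mcpt4 and Tpsb2 were listed at 0 in every library. No neutrophil or lymphocyte marker passed the filter, and their lists summed to at most 1.40 and 0.625 FPKM in any library. Adipocyte markers ran the other way, with 11 of 11 higher, Cidec, Lipe and Plin1 by 0.73, 0.73 and 0.57, and a sum of 10440 to 11130 FPKM at 100 µM, against 7297 to 7431 at 0 µM. The part of these shifts in the chemokine results was not tested.

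**Figure D5:**
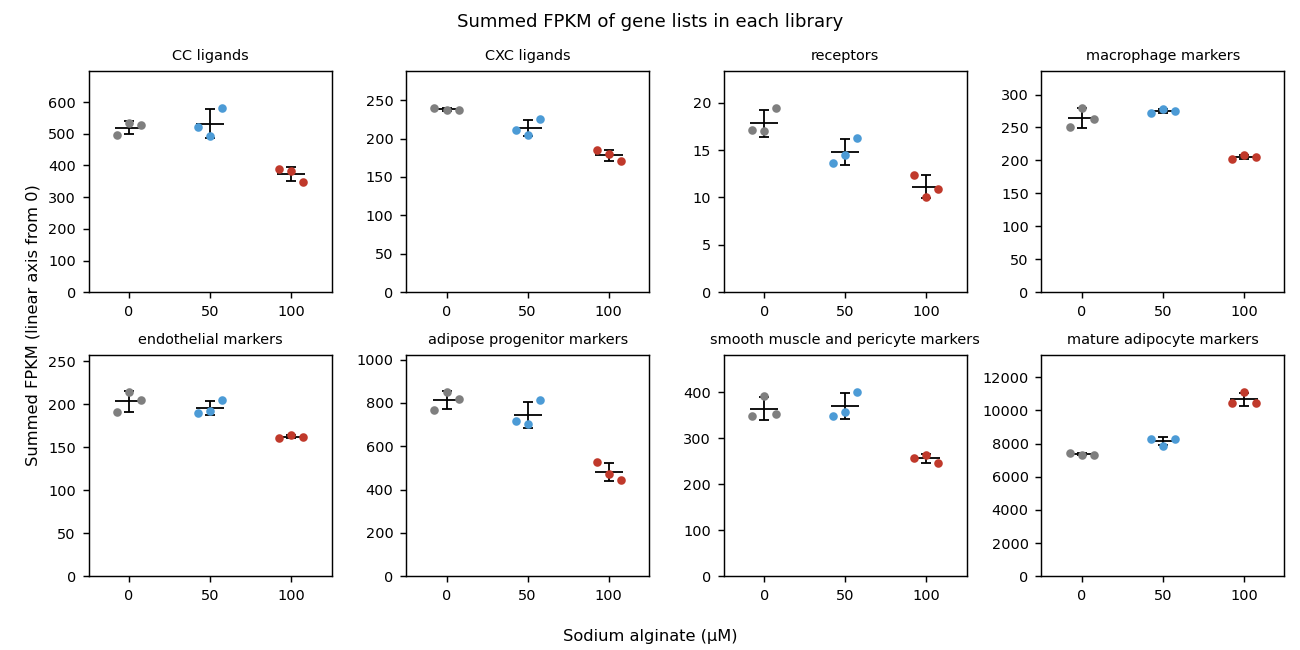
Summed FPKM per library (points) of the CC ligands, CXC ligands and receptors and of 5 marker lists at 0, 50 and 100 µM alginate, with the mean (horizontal bar) and SD (error bar) of each dose on linear axes from 0. CC ligands (348 to 388 FPKM at 100 µM, against 496 to 533 at 0 µM) and macrophage markers are lowest in all 100 µM libraries, and adipocyte markers are highest there.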

How the data were processed

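The authors deposited 1 table of FPKM values for 9 libraries, per the file headers. Multiplied by gene length, 100% of values were whole multiples of 1 number per library (tolerance 0.01 read), so reads were rebuilt. The divisor was 0.969 to 1.03 times the read total, so the deposited FPKM carries a factor per library. That factor goes with dose, at 0.969 to 0.976 in the 100 µM libraries and 1.013 to 1.027 in all others. The deposited scaling thus raises 100 µM values against those of the other doses. With the authors' factor removed, 15 of the 22 tested members were called lower and 0 higher at 100 µM against 0 µM (limma). The submitters' processing notes name GRCm38 and mm10, whereas identifiers are of the C57BL/6NJ assembly. The aligner, counter and strand setting are ones not given in the sources used here, and reads of overlapping genes may be mixed. Here log2(FPKM + 1) entered a limma fit (version 3.58.1, R 4.3.3) with a variance trend and 1 mean per dose over 9 libraries. Tests were two-sided and covered the 12635 genes that reached 1 FPKM in 3 or more libraries, with adjustment over all of them. Of the 22 tested members 19 reached 1 FPKM in every library, and 0 passed through 1 dose alone. The fit was tested on simulated data, with the same dispersion for all genes and changes larger than most falls described here. Recovery was required there only for genes of higher level. That test therefore does not show how well smaller falls or low genes are recovered. Members and lists were chosen with earlier results of these data known. Every tested member is named, with up to 3 genes per list by smallest p and 12 preset genes, among which Lyz2 is not analysed here. Pf4, C1qc, Chuk, Gnai1, Ptk2b, Cspg4 and Mcam were named in addition, outside this rule. Some genes that did not pass the filter are also named. A few results are not reported here.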

Additional observations from a re-analysis of the deposited data

How the results depend on the processing

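Under 18 alternatives none of the tested genes described here with a fold change or a call changed sign while called. Of the 13 genes lower at 100 µM than at 0 µM, 9 (Ccl2, Ccl6, Ccl7, Ccl9, Ccl12, Cxcl5, Cxcl14, Ackr3 and Cxcr4) were called in every alternative and 4 were lost in some. Leaving out 1 library gave 9 to 14 called genes at 100 µM against 0 µM, 0 to 1 at 50 µM against 0 µM and 8 to 13 at 100 µM against 50 µM. At 50 µM against 0 µM the count of 0 became 1, Cxcl12, with the TPM scale, 1 with the authors' factor removed, 1 with quantile normalization and 2 with voom. The cause was not tested. At 100 µM against 0 µM, Ccl11 passed with voom (adjusted p = 0.045). Same-numbered libraries shared no deviation over the tested genes (9 correlations from -0.094 to 0.041), so no pairing by number was seen. Such correlations cannot exclude a shared animal or culture, which no label states. With the replicate block 12, 0 and 14 genes were called in these comparisons, in that order. In the first, the block lost Ccl3 and Cx3cl1 (adjusted p = 0.0711 and 0.0532, limma) and gained Cxcl12 (0.0427), and Il1r1 at 50 µM was lost at 0.0774. Planned count tests and TMM scaling of the rebuilt reads were not run, whereas voom, which was not planned, was applied to those reads. The number of libraries, 3 per dose, and the few reads of low genes limit Ccl3, Ccl4, Cxcl2 and Ccr1.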
